A study of Mus musculus with 8 samples.

Results

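The 10 genes described here encode C-type lectin receptors of myeloid cells: Clec4d, Clec4e, Clec4n, Clec7a, Clec5a, Clec4a1, Clec4a3, Clec4a2, Clec12a and Clec10a. They were taken by gene symbol from a table of 15747 genes with values, in which each has 1 entry, and all 10 had a value in every library. The set was chosen by the family of the genes and with their normalised read counts in injury against sham already known, so the values of that contrast are given for them as a description, with no test.

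RNA from mouse Achilles tendon was sequenced in 8 libraries, 4 from sham-operated and 4 from injured tendons. All 8 came from wild-type C57BL/6J mice, and no other allele or agent is named for either group. In the injury group, an ear punch 1.5 mm in diameter removed a semicircle of 0.75 mm from the lateral side of the tendon, a partial transection. The labels give neither an age nor the time between operation and sampling. Nor do they tie each library to an animal of its own, and every p-value below therefore measures the spread among these 8 libraries alone, part of which may be technical. The unit is the normalised read count per gene, with library totals of 13596488 to 15545903 in sham and 14568669 to 16263086 in injury.

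C-type lectin receptors bind sugars, lipids or proteins of microbes and of dying cells through a lectin-like domain. One class signals through an activating motif, either in its own tail or in the adaptors FcR gamma (Fcer1g) and DAP12 (Tyrobp), which recruit the kinase Syk and, further on, the scaffold Card9. A second class carries an inhibitory motif that recruits phosphatases such as SHP-1 (Ptpn6), and others serve mainly in uptake. In tissues these receptors are best known from macrophages, monocytes, neutrophils and dendritic cells.

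The sum of 12 tendon genes ranged from 764261 to 1391027 normalised read counts in sham and from 2428613 to 2877402 after injury, and 8 of them rose. In sham replicate 4 this sum was 764261, beside 1552035 for the muscle genes described next. Skeletal muscle RNA differed with the groups: the sum of 20 muscle genes ranged from 777936 to 1552035 normalised read counts in sham and from 49942 to 340715 after injury. Fat cell genes (9, all of which fell) had sums of 20812 to 41681 in sham and 4260 to 8109 after injury, and of 9 endothelial and red cell genes (sums of 13177 to 19307 and 7684 to 10820) 7 fell. Of 6 osteoclast genes 5 rose, with sums of 1891 to 2776 and 12578 to 15844. Most of that sum was Ctsk, with means of 1564.5 and 12363, beside 2230.5 and 14236 for all 6 genes. Here and below, rose and fell mean that limma, with p adjusted over all genes by Benjamini-Hochberg, gave a value under 0.05. Over all genes 28.5% rose and 31.3% fell. The part of these other cell types in the results was not tested, apart from the fits with a muscle covariate. Macrophage genes, 20 of them with values, had sums between 25047 and 35799 in sham and between 59452 and 71860 in injury libraries. A few abundant genes dominate these sums: Lyz2 (means of 6905.5 in sham and 20074 after injury), Spp1 (5603 and 14850) and Apoe (6225 and 13090). The median log2 difference of the 20 genes was 0.51, and 13 rose and 3 fell. Of 18 neutrophil genes 14 had no value in any library, the defining genes Ly6g, S100a8, S100a9, Mpo and Elane among them, and the sum of the other 4 ranged from 381 to 582 in sham and from 406 to 474 after injury. That sum joins opposite differences: Mmp9 (log2 2.23) and Csf3r (log2 1.69) rose, while Lcn2 fell from a mean of 391 to 136.5 (log2 −1.55). The call of Csf3r was lost with the muscle covariate (log2 1.52). Only Cd4 of 17 lymphocyte genes had a value (sham 24 to 32, injury 76 to 151).

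The injured tendons held much more RNA for the activating receptors Clec4d, Clec4e and Clec7a, and to a smaller degree for Clec4n. The DCIR genes Clec4a1, Clec4a3 and Clec4a2 lay moderately higher, Clec12a lay higher with overlapping groups, Clec5a differed little, and Clec10a was the only member with a lower mean after injury. In bulk RNA, fewer cells of a type and less RNA per cell cannot be told apart, and this holds for every value that follows. For 7 of the 10 every injury library lay above every sham library, beside 26.7% of all genes, and none showed the reverse, beside 28.9%. At least a 2-fold difference was fitted for 5 of the 10, beside 8.01% of all genes. The median log2 difference was 1.08 over the 10 genes and −0.02 over all genes. Because this comparison chose the genes, nothing is read from these shares.

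**Figure D1:**
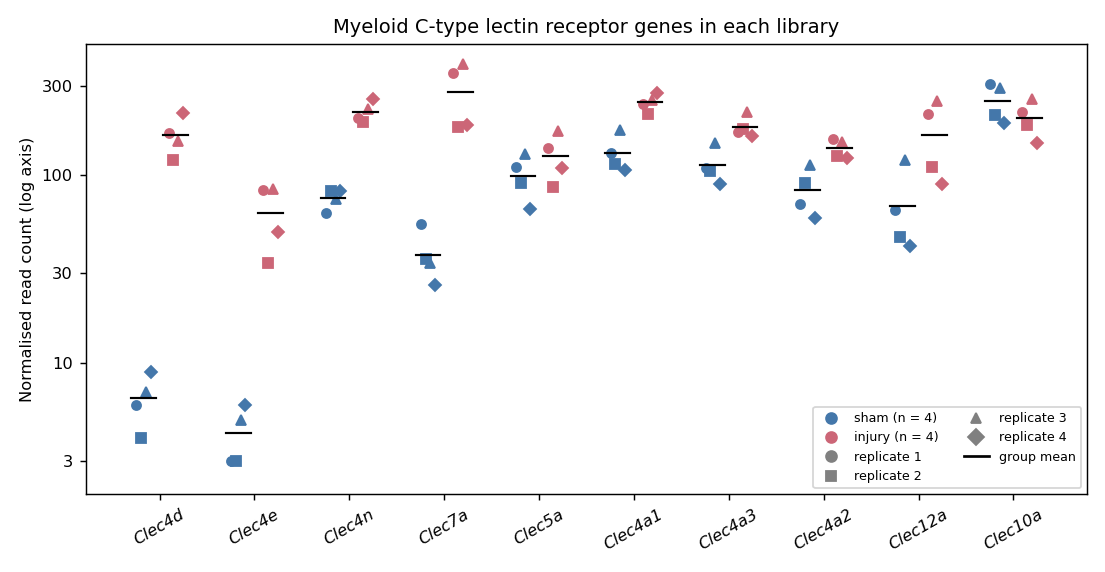
Normalised read count (log axis) of each of the 10 receptor genes in every library, with sham in blue, injury in red, a marker shape per replicate number and a black line at each group mean (n = 4 per group). Clec4d lies at 4 to 9 in sham and at 120 to 214 after injury, whereas the groups of Clec5a, Clec12a and Clec10a overlap.

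Clec4d encodes MCL, which pairs with FcR gamma and binds the mycobacterial cord factor. Its normalised read counts were 6, 4, 7 and 9 in sham replicates 1 to 4 and 168, 120, 152 and 214 in injury replicates 1 to 4. The gene was thus close to the floor of the measurement in every sham library and far above it in every injury library. The means were 6.5 ± 2.08 and 163.5 ± 39.1 (SD, n = 4 each), a 22.1-fold difference on the log2(value + 1) scale (log2 4.47, SE 0.25). By that difference Clec4d ranked 27 among the 15747 genes.

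Clec4e encodes Mincle, the partner of MCL, which binds cord factor and the nuclear protein SAP130 released from dying cells. It had 3, 3, 5 and 6 normalised read counts in sham and 83, 34, 84 and 50 in injury libraries. Injury replicates 1 and 3 stood above 2 and 4, and the lowest injury library was still well above every sham library. The means were 4.25 ± 1.50 and 62.8 ± 24.8 (SD, n = 4 each), which is 11.7-fold (log2 3.55, SE 0.35), at rank 56 of all genes. The added 1 in the log scale lowers the fold of both Clec4d and Clec4e, whose sham values are small.

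Clec7a encodes dectin-1, the receptor for fungal beta-glucan, which recruits Syk through a motif in its own tail. Sham replicates 1 to 4 had 55, 36, 34 and 26 normalised read counts, and injury replicates 1 to 4 had 352, 181, 393 and 186. The groups did not overlap, and injury replicates 1 and 3 again held about the same high level while 2 and 4 shared a lower one. The means were 37.8 ± 12.3 and 278 ± 110 (SD, n = 4 each), a 7.01-fold difference (log2 2.81, SE 0.31).

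Clec4n encodes dectin-2, which binds mannans and signals through FcR gamma. Normalised read counts of 63, 82, 75 and 82 in sham stood against 201, 192, 226 and 255 in injury libraries. The spread within each group was small beside the gap between them. Its mean was 75.5 ± 8.96 in sham and 218.5 ± 28.3 in injury (SD, n = 4 each), 2.87-fold (log2 1.52, SE 0.13).

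Clec5a encodes MDL-1, which signals through DAP12. It was measured at 111, 91, 130 and 66 normalised read counts in sham and at 139, 87, 172 and 109 in injury libraries. The groups overlapped: the lowest injury library lay below sham replicates 1, 2 and 3. The means of 99.5 ± 27.4 and 126.75 ± 36.9 (SD, n = 4 each) gave a 1.27-fold difference (log2 0.34, SE 0.25), which ranged from 0.01 to 0.51 over the other settings tried.

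The promoters of these receptors are shown because Clec4d and Clec4e neighbour each other and both lay far higher after injury, whereas Clec5a, also a receptor of the activating class, differed little. Each line gives the 250 bases before the RefSeq transcription start on GRCm38.p6, read 5′ to 3′ on the strand of the gene. The windows are chr6:123261857-123262106 (forward strand) for Clec4d, chr6:123289872-123290121 (reverse strand) for Clec4e, chr6:129472780-129473029 (reverse strand) for Clec7a and chr6:40585806-40586055 (reverse strand) for Clec5a. Capitals mark matches, on either strand, to GAGGAA and GGAAGT, letters of the ETS factor motif, to TTGCNNAA, of the C/EBP motif, and to TGANTCA, of the AP-1 motif.
Clec4d: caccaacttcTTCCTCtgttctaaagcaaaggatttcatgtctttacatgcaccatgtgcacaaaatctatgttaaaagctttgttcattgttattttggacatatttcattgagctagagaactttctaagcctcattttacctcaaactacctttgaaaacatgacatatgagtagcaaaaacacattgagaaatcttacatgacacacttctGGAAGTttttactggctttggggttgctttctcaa
Clec4e: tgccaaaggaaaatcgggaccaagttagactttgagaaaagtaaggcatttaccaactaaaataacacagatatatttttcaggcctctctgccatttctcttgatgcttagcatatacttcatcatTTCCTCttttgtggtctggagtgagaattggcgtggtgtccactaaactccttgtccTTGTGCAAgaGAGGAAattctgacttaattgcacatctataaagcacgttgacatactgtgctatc
Clec7a: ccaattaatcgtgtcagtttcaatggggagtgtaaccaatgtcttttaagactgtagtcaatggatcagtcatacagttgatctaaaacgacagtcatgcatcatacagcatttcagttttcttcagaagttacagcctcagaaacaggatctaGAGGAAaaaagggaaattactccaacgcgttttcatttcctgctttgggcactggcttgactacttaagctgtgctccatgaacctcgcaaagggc
Clec5a: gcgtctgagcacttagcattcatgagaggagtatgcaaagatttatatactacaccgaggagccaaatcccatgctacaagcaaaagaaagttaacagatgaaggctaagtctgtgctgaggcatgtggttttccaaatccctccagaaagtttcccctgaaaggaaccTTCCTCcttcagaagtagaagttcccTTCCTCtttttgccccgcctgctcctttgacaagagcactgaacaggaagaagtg
Counting back from the start site, the first base of the match to GAGGAA lies at −240 in Clec4d, at −123 and −56 in Clec4e, at −96 in Clec7a and at −81 and −55 in Clec5a. Clec4d also holds GGAAGT at −35 and Clec4e holds TTGCNNAA at −66. The RefSeq table held windows for 8 of the 10 genes, 10 windows in all, and had none for Clec4n and Clec10a. GAGGAA was found in 7 of these 8 genes (8 of 10 windows), and in 23.3% of all 32851 windows of the same length in the table. GGAAGT was found in 2 of 8 genes (2 of 10 windows) against 19.7% of windows, TTGCNNAA in 2 of 8 (2 of 10) against 9.56%, and TGANTCA in 1 of 8 (1 of 10) against 6.75%. GAGGAA and GGAAGT can overlap in the letters GGAA, and a match is a description of the letters, not of a bound site. Each of the printed promoters held GAGGAA, that of Clec5a included, and a link between the letters and the RNA levels was not tested.

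Among the DCIR genes, Clec4a2 encodes DCIR1, a receptor with an inhibitory motif, and Clec4a1 and Clec4a3 encode its relatives DCIR4 and DCIR3. Clec4a1 had 131, 115, 174 and 107 normalised read counts in sham and 240, 212, 252 and 274 in injury libraries, means of 131.75 ± 29.9 and 244.5 ± 25.8 (SD, n = 4 each; 1.87-fold, log2 0.91, SE 0.16). All injury libraries lay above all sham libraries, with sham replicate 3 closest to the injury group. Clec4a3 had 109, 106, 149 and 90 in sham and 170, 177, 218 and 161 in injury libraries, means of 113.5 ± 25.1 and 181.5 ± 25.2 (1.61-fold, log2 0.69, SE 0.16). Its sham replicate 3 was likewise the highest of its group and stayed just below the lowest injury library. Clec4a2 had 70, 91, 114 and 59 in sham and 156, 127, 150 and 123 in injury libraries, means of 83.5 ± 24.3 and 139 ± 16.4 (1.70-fold, log2 0.77, SE 0.20). Here too the groups were separate, by a narrow gap between sham replicate 3 and injury replicate 4.

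Clec12a encodes MICL, an inhibitory receptor that senses uric acid crystals and dead cells. Its values were 65, 47, 120 and 42 normalised read counts in sham and 211, 110, 248 and 90 in injury libraries. Sham replicate 3 exceeded injury replicates 2 and 4, so the groups overlapped. The means were 68.5 ± 35.7 and 164.75 ± 76.7 (SD, n = 4 each), 2.38-fold (log2 1.25, SE 0.40). With the mean of muscle genes as a covariate the log2 difference was 0.38.

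Clec10a encodes MGL1, a receptor for galactose and N-acetylgalactosamine on macrophages and dendritic cells. It had 305, 209, 291 and 190 normalised read counts in sham and 216, 186, 254 and 148 in injury libraries. The ranges overlapped broadly, with injury replicate 3 above sham replicates 2 and 4. The means were 248.75 ± 57.7 and 201 ± 45.0 (SD, n = 4 each), 1.23-fold lower after injury (log2 −0.30, SE 0.20), and the log2 difference lay between −0.70 and −0.17 over the other settings tried. Of 50-base words in its transcripts, 10.6% also occur in those of Mgl2, which encodes the related receptor MGL2, so reads could be divided between the pair. Such words made up 8.36% for Clec4a2 and 0.932% for Clec4n, and none were shared for the other 7 members.

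The spread between injury libraries differed among the members. The coefficient of variation there was 46.6% for Clec12a, 39.7% for Clec7a and 39.6% for Clec4e, against 10.6% for Clec4a1, 11.8% for Clec4a2, 12.9% for Clec4n and 13.9% for Clec4a3. In 6 of the 10 genes (Clec4e, Clec7a, Clec5a, Clec4a2, Clec12a and Clec10a) injury replicates 1 and 3 both exceeded 2 and 4. Clec4d, Clec4n and Clec4a1 were instead highest in injury replicate 4. Within sham, replicate 4 was the lowest library for 7 members and replicate 3 the highest for 5. The summed level of 11 pan-leukocyte genes was 3282, 3342, 3879 and 2838 in sham and 6047, 4882, 6288 and 5578 in injury libraries. Sham replicate 4 and injury replicate 2 were lowest by this measure too, and its part in the order of the members was not tested.

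**Figure D2:**
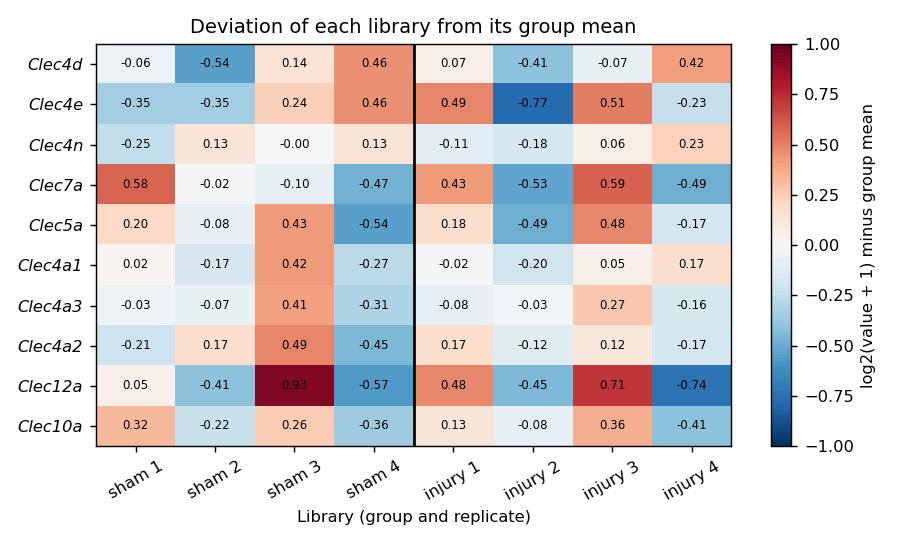
Deviation of each library from the mean of its own group, as log2(value + 1), for each receptor gene (one line per gene) and library (one column per library), with the value printed in each cell and colours from blue (below) to red (above). The columns of injury replicates 1 and 3 are mostly red and that of injury replicate 2 mostly blue, while Clec4d, Clec4n and Clec4a1 are highest in injury replicate 4.

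Leukocyte RNA was itself higher after injury. Ptprc, which encodes the leukocyte surface protein CD45, had 318, 384, 406 and 321 normalised read counts in sham and 644, 581, 700 and 625 in injury libraries. Over all 15747 genes 28.5% rose, or 2256 genes with the muscle covariate. Of the 11 pan-leukocyte genes 10 rose, with a median log2 difference of 0.84 (3 of 11 with the muscle covariate, median 0.71). The members were therefore also expressed against these genes in the same library, by subtracting their mean log2(value + 1). On this scale the injury libraries lay wholly above the sham libraries for 4 members (beside 5.12% of all genes), which were Clec4d, Clec4e, Clec4n and Clec7a, and wholly below for 1 (beside 64.0%), which was Clec10a. The log2 differences were 3.74 for Clec4d, 2.83 for Clec4e, 2.08 for Clec7a and 0.79 for Clec4n. They were 0.53 for Clec12a, 0.18 for Clec4a1, 0.04 for Clec4a2, −0.04 for Clec4a3, −0.38 for Clec5a and −1.03 for Clec10a. The DCIR genes, which lay higher in raw level, therefore differed from the pan-leukocyte genes by no more than 0.18. Against 20 macrophage genes in place of the pan-leukocyte genes, 5 members lay wholly above (beside 7.09% of all genes), Clec4a1 being added, and Clec10a again lay wholly below (beside 55.9%). The log2 difference of Clec4a1 was 0.36 on this scale. Of these 20 genes 13 rose and 3 fell, so their mean joins genes that differ in opposite directions.

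**Figure D3:**
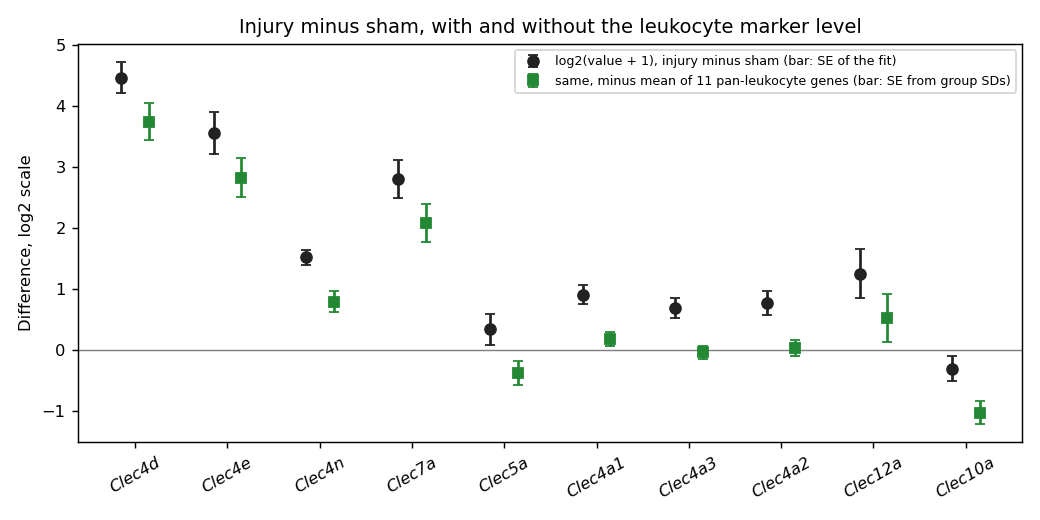
Injury minus sham difference on the log2 scale for each receptor gene, as measured (black circles, bar SE of the fit) and after subtracting the mean of 11 pan-leukocyte genes in the same library (green squares, bar SE from the group SDs), n = 4 per group. Clec4d, Clec4e, Clec7a and Clec4n stay above 0 on both scales, the 3 DCIR genes move to near 0, and Clec10a moves to −1.03.

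A ratio to 1 gene of the same library does not depend on how the libraries were scaled. Per 100 normalised read counts of Ptprc, Clec4d stood at 1.86 ± 0.73 in sham and 25.7 ± 6.18 in injury libraries (SD, n = 4 each). Clec4e stood at 1.21 ± 0.48 and 9.69 ± 3.32, and Clec7a at 10.8 ± 4.37 and 42.9 ± 14.4. Clec4n stood at 21.3 ± 3.07 and 34.3 ± 4.37. None of these 4 overlapped between the groups, beside 4.07% of all genes higher per Ptprc without overlap. Clec10a went the other way, from 70.3 ± 18.6 (range 54.4 to 95.9) to 31.4 ± 5.43 (range 23.7 to 36.3), also without overlap, beside 72.2% of all genes lower. For the other 5 members the ratios overlapped, and those of Clec4a1, at 36.8 ± 6.19 and 38.4 ± 3.66, and Clec4a2, at 23.0 ± 4.02 and 21.8 ± 1.87, had nearly the same means.

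Levels can be ranked between genes only per length, and here the length was that of the longest coding transcript in GENCODE M21. In sham tendon Clec10a had the highest mean level, 107 ± 24.7 normalised read counts per kb (SD, n = 4), followed by Clec4a3 at 87.3 ± 19.3, Clec4a1 at 84.6 ± 19.2 and Clec4n at 61.4 ± 7.29. Clec4a2 stood at 33.7 ± 9.79, Clec12a at 27.4 ± 14.3, Clec5a at 26.6 ± 7.32 and Clec7a at 16.6 ± 5.40. Clec4d at 4.91 ± 1.57 and Clec4e at 1.69 ± 0.60 closed the order. Of the 9 neighbouring pairs in this order 5 had overlapping ranges, and the order was clear of overlap between Clec4a1 and Clec4n, Clec4n and Clec4a2, Clec7a and Clec4d, and Clec4d and Clec4e. In injured tendon Clec4n led at 178 ± 23.0 per kb, followed by Clec4a1 at 157 ± 16.6 and Clec4a3 at 140 ± 19.4. Clec4d, now at 124 ± 29.6, and Clec7a, at 122 ± 48.5, stood above Clec10a at 86.2 ± 19.3. Clec12a at 65.8 ± 30.7, Clec4a2 at 56.0 ± 6.62, Clec5a at 33.8 ± 9.86 and Clec4e at 24.9 ± 9.86 followed. There 8 of the 9 neighbouring pairs overlapped, all but Clec4a2 and Clec5a, so that most of the order within injury is not resolved. With the length of all annotated exons in place of the longest transcript, Clec12a took place 8 in sham and 9 in injury, and Clec4a1 and Clec4n exchanged the first places in injury.

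**Figure D4:**
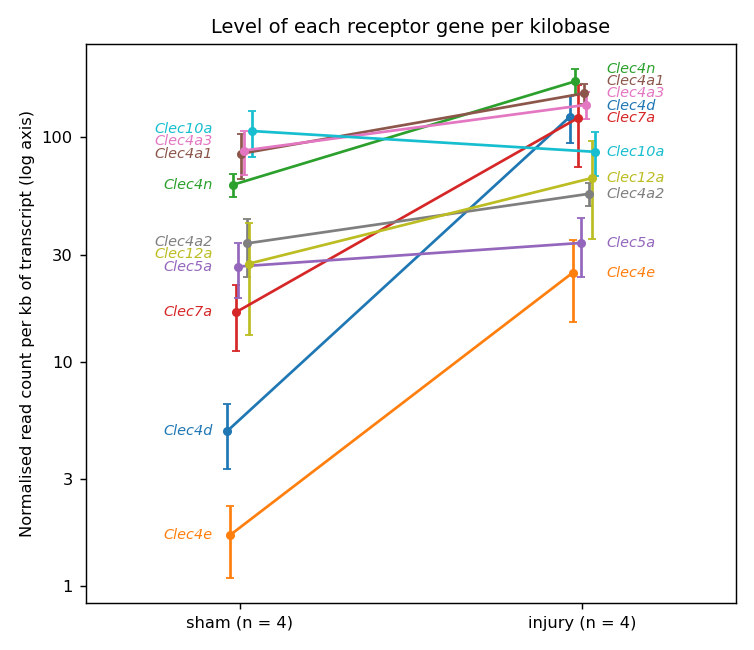
Mean level of each receptor gene in normalised read counts per kb of its longest coding transcript (log axis), with a line from sham to injury for each gene and bars of 1 SD (n = 4 per group). Clec10a leads in sham, and Clec4d climbs from 4.91 to 124 per kb, past Clec10a.

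In GENCODE M21 (GRCm38), 9 of the 10 genes lie on chromosome 6 and 1 on chromosome 11, and none shares exon bases with another annotated gene. A stretch of 368 kb, chr6:122921848-123289870, holds 9 annotated lectin genes and 6 of the members. In order of position these are Clec4a1 (ENSMUSG00000049037.8, 122921848 to 122934619), Clec4a3 (ENSMUSG00000043832.13, 122952515 to 122969875), Clec4a2 (ENSMUSG00000030148.15, 123106428 to 123143999), Clec4n (ENSMUSG00000023349.14, 123229843 to 123247021) and Clec4d (ENSMUSG00000030144.4, 123262111 to 123275265), all on the forward strand. Clec4e (ENSMUSG00000030142.10, 123281789 to 123289870) follows on the reverse strand, 6523 bases from the end of Clec4d. The difference after injury was larger at this end of the stretch: from Clec4a1 to Clec4e in order of position, the log2 differences were 0.91, 0.69, 0.77, 1.52, 4.47 and 3.55. The 3 other genes there, Clec4a4, Clec4b1 and Clec4b2, had no values.

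A second stretch of 130 kb, chr6:129342691-129472779, runs from Clec12a (ENSMUSG00000053063.11, forward strand, 129342691 to 129365303) to Clec7a (ENSMUSG00000079293.11, reverse strand, 129461591 to 129472779). Clec7a is annotated as a polymorphic pseudogene with coding transcripts. Between these members lie Clec9a, which encodes a dendritic cell receptor for dead cells, and Clec1a. Neither passed the test, with mean normalised read counts of 33.8 in sham and 23.5 in injury for Clec9a, and 88.2 and 59.5 for Clec1a. Both means were thus lower after injury, where both flanking members were higher. Clec12b and Clec1b in the same stretch had no values. Clec5a (ENSMUSG00000029915.14) stands alone at chr6:40574894-40585821 on the reverse strand, and Clec10a (ENSMUSG00000000318.16) at chr11:70156197-70170834 on the forward strand.

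The profiles over the 8 libraries were compared with those of 13194 other genes by the root mean square difference of log2(value + 1), each gene centred on its own mean, as a description without a test. All profiles share the 8 libraries and the same contrast, so a small distance mostly reflects a similar difference between the groups. Nearest to Clec4d were Acan (0.372), which encodes the cartilage proteoglycan aggrecan, and Atp6v0d2 (0.398), a proton pump subunit known from osteoclasts and macrophages. Close to Clec4e was Cdh11 (0.392), a cadherin gene of fibroblasts. Clec7a was nearest to Gpnmb (0.297), a glycoprotein gene of macrophages, and to Crabp1 (0.328). Clec4a1 was nearest to the leukocyte genes Laptm5 (0.0955) and Ms4a6d (0.0957), and Clec4a2 to Ptpn7 (0.0768) and the interleukin-10 receptor gene Il10ra (0.0803). The genes nearest to Clec4a3 were Galns (0.0990) and Pid1 (0.102), those nearest to Clec5a were Gpr34 (0.132) and Tmem106a (0.157), and those nearest to Clec4n were Oaf (0.117) and Pcdhga11 (0.118). Clec12a, with its uneven injury libraries, was nearest to Atp8b4 (0.318) and Xylb (0.349), and Clec10a was nearest to Slc10a6 (0.0902) and Fbxo5 (0.118).

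Among themselves the members fell far apart. The closest pairs were Clec4a3 and Clec4a2 (0.168), Clec4a1 and Clec4a3 (0.195) and Clec4a1 and Clec4a2 (0.224), all of the DCIR group. The partners Clec4d and Clec4e were 0.599 apart, and 16 non-member genes were closer to Clec4d than Clec4e was. Clec4d and Clec10a were the most distant pair (2.44).

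The genes through which the receptors signal were taken from lists written with earlier results of these data known, and tested in the same limma fit with Benjamini-Hochberg adjustment over all 15747 genes. Of 21 measured adaptors and proximal kinases 18 rose, none fell and 3 did not pass, with a median log2 difference of 0.69. Over all genes 28.5% were higher and 31.3% lower, 59.7% together, and the median was −0.02. With the muscle covariate 3 rose and none fell, at a median log2 difference of 0.51. Over all 15747 genes that fit called 2256 higher and 1750 lower, at a median of −0.01. The 3 of 21 is near this share, so the count with the covariate shows nothing about the list. Src, a kinase that can act on such receptors, rose from 239.5 ± 41.4 to 535.5 ± 32.6 normalised read counts (SD, n = 4 each; log2 1.17, SE 0.13, adjusted p = 7.29e-05 in limma). Pik3r5, a regulatory subunit of phosphoinositide 3-kinase, rose by 1.17 as well, and the Src family kinase gene Fgr rose by 1.23, a call that the covariate ended (log2 0.61). The most abundant gene of the list, Prkcd, had 734 ± 107 and 853 ± 53.1 and did not pass.

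The direct partners of the activating receptors were looked up after their values were seen. Fcer1g, whose product carries the signal of Clec4d, Clec4e and Clec4n, had 369, 355, 502 and 235 normalised read counts in sham and 581, 488, 583 and 525 in injury libraries. Sham replicate 3 exceeded the lowest injury library, so the groups overlapped. Fcer1g rose by 0.62 on the log2 scale (SE 0.20, adjusted p = 0.0217 in limma), but the call was lost with equal library totals (adjusted p = 0.0738), with the muscle covariate (adjusted p = 0.617), without injury replicate 3 (adjusted p = 0.0538) and without the 3 libraries with the most muscle RNA (adjusted p = 0.0756). On the same scale the log2 differences of its receptor genes Clec4d, Clec4e and Clec4n were 4.47, 3.55 and 1.52. Tyrobp, encoding DAP12, rose from 392 ± 72.2 to 752 ± 66.6 (log2 0.95, SE 0.13, adjusted p = 0.000239 in limma, 0.0553 with the muscle covariate at log2 0.70), while its receptor gene Clec5a differed by 0.34. Syk rose from 389 ± 85.3 to 606 ± 26.5 (log2 0.66, SE 0.14, adjusted p = 0.00325 in limma, 0.197 with the muscle covariate at log2 0.52).

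Of the 24 measured genes of the Card9 module with NF-kB and NFAT, 7 rose and 5 fell, and 12 missed the threshold (median 0.08). These shares are near those over all genes (28.5% higher, 31.3% lower), so the count shows nothing about the module. With equal library totals 4 rose and 6 fell, and with the muscle covariate 4 rose and 1 fell. Nfkb2 rose by 0.50 and Nfatc1 by 0.50 (log2 1.11 with the covariate). Irf5, a transcription factor of inflammatory macrophages, fell by 0.37, a call lost with the covariate (log2 −0.49) and without the 3 libraries with the most muscle RNA (log2 −0.39), though the difference was no smaller. Nfatc2 rose by 0.69 (adjusted p = 0.0393 in limma) but lost its call in 7 of the 17 alternatives, while with the covariate the log2 difference was 1.63. Card9 itself had 52, 55, 51 and 38 normalised read counts in sham and 57, 66, 76 and 59 in injury libraries. Its groups were separate by a narrow gap, and it did not pass (log2 0.39, SE 0.16, adjusted p = 0.0577 in limma). Card9 passed in limma with median-ratio scaling (adjusted p = 0.0439) and a single prior variance (adjusted p = 0.0397), but in no other alternative. Of the proteins that join Card9, Bcl10 rose by 0.35 (adjusted p = 0.00222 in limma, and 0.0659 at a log2 difference of 0.41 with the covariate) and Malt1 differed by 0.17 (adjusted p = 0.133 in limma).

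On the inhibitory side, 8 of 16 phosphatases and regulators rose, 2 fell and 6 did not pass (median 0.23), and 4 rose and 1 fell with the muscle covariate. The 62.5% called in either direction is near the 59.7% over all genes, so that share shows nothing about the list. Over all 15747 genes 28.5% were higher and 31.3% lower, or 2256 and 1750 genes with the covariate. Ubash3b, a phosphatase gene that dampens Syk, rose by 1.10. Pirb, an inhibitory receptor gene, rose by 0.90 and Ptpn6, encoding SHP-1, rose by 0.86 on the log2 scale, and both calls were lost with the covariate (log2 0.56 and 0.50). Inppl1, encoding the lipid phosphatase SHIP2, fell by 0.96, and Ptpn11, encoding SHP-2, fell by 0.38 but turned to 0.03 with the covariate. Of the cytokines and effectors known downstream of Syk and Card9, 19 of 33 had values, and of these 14 rose, 1 fell and 4 did not pass (median 0.81), with 6 rising and none falling under the covariate. The 14 without values included Il6, Tnf, Il10, Il23a, Il12b and Cxcl2. Il1rn, encoding the interleukin-1 receptor antagonist, rose from 6.75 ± 1.26 to 51.5 ± 16.6 (6.52-fold, adjusted p = 7.66e-05 in limma). Ptgs2, encoding cyclooxygenase-2, rose by 1.95 on the log2 scale (2.54 with the covariate), Cybb, encoding the NADPH oxidase subunit gp91phox, rose by 1.68 (log2 1.26, adjusted p = 0.0715 in limma with the covariate), and Nos2, encoding inducible nitric oxide synthase, fell by 0.49, a call lost with the covariate at a log2 difference of −0.64.

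Other C-type lectin genes did not share one direction. Of 70 such genes outside the 10, 35 had values, and 10 rose, 10 fell and 15 did not pass (median 0.00), beside 28.5% higher and 31.3% lower over all genes. The genes that rose furthest are better known from matrix and stroma than from myeloid cells: Acan rose by 4.36 (4.96 with the muscle covariate), Mrc2, encoding the collagen receptor Endo180, by 1.78, Cd248, encoding endosialin, by 1.37, Layn, encoding layilin, by 1.36 and Colec12, encoding a scavenger collectin, by 1.33. The steepest falls were those of Cd209 genes, the mouse relatives of DC-SIGN. Cd209f had 142, 118, 110 and 79 normalised read counts in sham and 6, 8, 13 and 6 in injury libraries, with no overlap (log2 −3.64, SE 0.27, adjusted p = 1.11e-05 in limma). Cd209g fell by 3.87, or by 3.21 without injury replicate 4, where it had 0, and Cd209b fell by 2.91, or by 1.98 with the covariate. All 6 measured Cd209 genes fell, the other 3 being Cd209a (−0.84), Cd209c (−1.30) and Cd209d (−1.66), of which Cd209c lost its call with the covariate at a log2 difference of −1.52. Cd209f and Cd209g share 38.2% and 38.7% of their 50-base words with each other, so their reads may be divided between them. Mgl2, the gene closest to Clec10a in sequence and looked up after its values were seen, fell from 282 ± 92.1 to 152 ± 22.7 (log2 −0.83, SE 0.23, adjusted p = 0.0117 in limma).

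**Figure D5:**
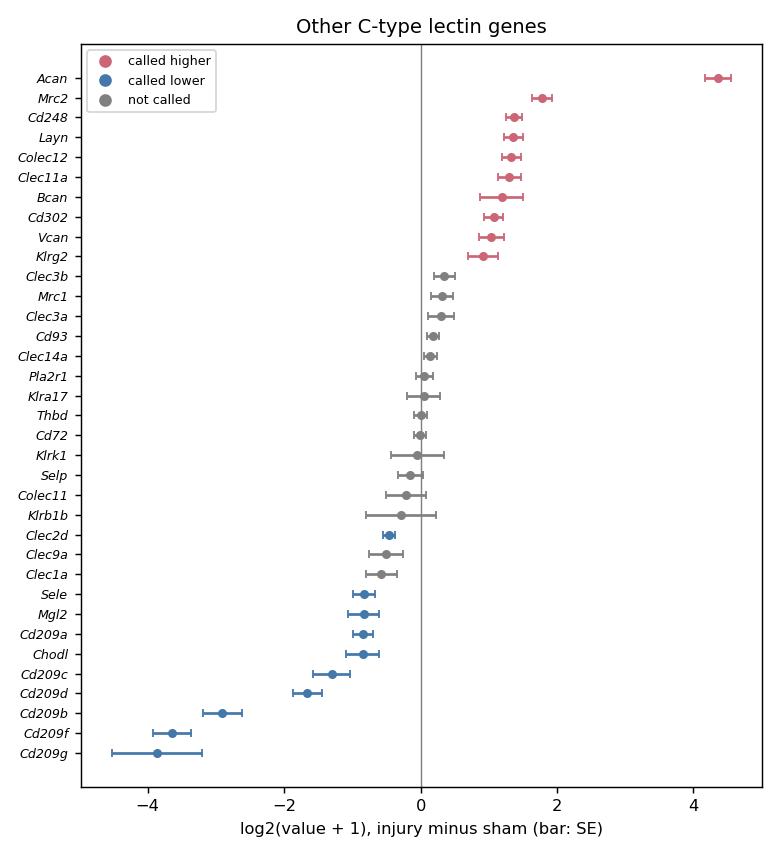
Injury minus sham difference in log2(value + 1) for the 35 measured C-type lectin genes outside the 10, sorted, with bars of the SE of the fit (n = 4 per group) and colours for genes called higher, lower or not called in limma. Cd209g (−3.87), Cd209f, Cd209b, Cd209d and Cd209c hold the lowest values, and Acan holds the highest, at 4.36.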

How the data were processed

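Bulk RNA sequencing of Achilles tendon gave 8 libraries, grouped by sample title. Per the file headers, each deposited value is a score that counts reads after normalisation by the authors, and all values were whole, as left by rounding. The method of normalisation is not given in the sources used here. The submitters' processing notes list edgeR 3.12, StringTie 1.3.5, STAR 2.7.6a and Trimmomatic 0.39 as tools and mm9 and mm10 as builds, without saying what each was used for. Of 55450 genes listed, 15747 had values, all in every library.

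Since the values are not raw counts, no count model was used. limma 3.58.1 (R 4.3.3) was fitted to log2(value + 1) with the group alone and a trended prior variance, for genes with at least 1 in at least 4 libraries, and two-sided p-values were adjusted by Benjamini-Hochberg over all genes (threshold 0.05). The script was tested on simulated data. No pair of libraries in a group was a duplicate (at most 2.25% of values equal). Positions and lengths came from GENCODE M21, with which 99.9% of gene identifiers matched, and figures from matplotlib 3.10.9 under Python 3.11.15.

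The 10 members and the 20 gene lists were chosen with earlier results of these data known. Among list genes with a mean of at least 10, the 3 called genes with the largest rise, the 2 with the largest fall (5 and 3 for other lectins) and the most abundant one could be named, and for each member the 2 genes nearest in profile with a mean of at least 20. Some genes that this rule chose are not reported here. Alternatives were other scalings, pseudocount 0.1, a minimum mean of 10, no filter, a single prior variance, each library left out, the mean log2 level of muscle genes as a covariate, and a block for the replicate number. A fit without the 3 libraries with the most muscle RNA (sham 4, injury 3 and injury 4) was added after seeing the data.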

Additional observations from a re-analysis of the deposited data

How the results depend on the processing

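Over 17 alternatives the 170 recomputed log2 differences of the 10 receptor genes kept their sign, and 5 moved by more than the spread between replicates, all with the muscle covariate: Clec4d to 4.93, Clec4n to 1.89, Clec4a2 to 0.33, Clec12a to 0.38 and Clec10a to −0.70. No filter, a minimum mean of 10, a single prior variance and the replicate block cannot change the log2 differences of these genes, so their part of the 170 shows nothing. The members' median of 1.08 ranged from 0.74 to 1.28 (0.94 to 1.28 without 1 library). The 7 members without overlap became 5 to 8 (7 to 8 without 1 library). The muscle covariate lowered the genes called from 9402 to 4006 (2256 higher, 1750 lower), adaptors and proximal kinases from 18 to 3, the Card9 module from 12 to 5, inhibitory regulators from 10 to 5 and cytokines and effectors from 15 to 6. The covariate itself differs between the groups, and with it the SE was 0.28 against 0.14 for Syk and 0.24 against 0.13 for Tyrobp. The median log2 difference with it was 0.51 for adaptors and proximal kinases, 0.09 for the Card9 module, 0.38 for inhibitory regulators and 0.71 for cytokines and effectors. In the main fit these medians were 0.69, 0.08, 0.23 and 0.81. Without 1 library the counts of genes called, in the order above, were 8641 to 9013, 16 to 18, 9 to 11, 10 to 11 and 14 to 16, and other lectins 20 to 22 (20 with all libraries). With the replicate number as a block they were 9742, 19, 13, 11 and 15, and other lectins 21, while the members' median stays 1.08 by construction. Libraries with the same number deviated together in part only (correlations over genes of 0.249, 0.284, −0.01 and 0.493). Those with different numbers had correlations from −0.434 to 0.256. For sham replicates 1, 2 and 4 the injury library with the same number gave the highest correlation. The numbers were not taken as pairs in the main fit, and a shared origin was not tested. Equal library totals moved the median of all genes to −0.11 (3428 higher, 5553 lower). The values of Clec4d and Clec4e in sham, at 3 to 9, limit the precision of their folds.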

Other observations

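The make-up of the receptor RNA differed between the groups. The 10 genes together held 918, 784, 1099 and 677 normalised read counts in sham and 1936, 1426, 2149 and 1610 in injury libraries, means of 869.5 ± 182.0 and 1780.2 ± 323.9 (SD, n = 4 each). These sums are not weighted for gene length. Clec10a made up 26.5 to 33.2% of the sum in sham and 9.19 to 13.04% in injury libraries, and while it had the largest share in every sham library, Clec7a led in injury replicates 1 and 3 and Clec4a1 in 2 and 4. Clec7a made up 3.09 to 5.99% in sham and 11.6 to 18.3% after injury, and Clec4d 0.510 to 1.33% and 7.07 to 13.3%. As shares of 1 sum, these values are bound to each other.

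Most genes of other innate receptor families were higher as well, though their summed level was not. Of 32 measured receptors and adaptors of these families 22 rose and 1 fell in limma with Benjamini-Hochberg adjustment (median log2 difference 0.59). With the muscle covariate 9 rose and 1 fell. Over all 15747 genes 28.5% rose and 31.3% fell, or 2256 and 1750 genes with the covariate. The gene that fell was Cd36, the most abundant of the list (means of 8283 and 2599.5, log2 −1.73, or −1.12 with the covariate). The sum of the 32 genes was 17188 ± 600 in sham and 15518 ± 1442 in injury libraries (SD, n = 4 each). Of 21 myeloid transcription factors 12 rose and 4 fell (4 and 2 with the muscle covariate), beside the same shares over all genes. Runx1 rose by 1.27 and Hif1a by 1.06, while Bcl6, a repressor of inflammatory genes, fell by 1.14. Of 12 genes whose products are known as self ligands or binding partners of such receptors 8 rose and none fell (6 and none with the muscle covariate, 8 and 2 without the 3 libraries with the most muscle RNA), beside 28.5% higher and 31.3% lower over all genes. Itgax, which encodes the integrin CD11c and was looked up after its values were seen, rose from 31.8 ± 6.85 to 652.5 ± 242 normalised read counts (log2 4.27, SE 0.27). Of 20 macrophage genes 13 rose and 3 fell (9 and 4 with equal library totals, 6 and 2 with the muscle covariate). The 3 that fell were Cd163 (log2 −1.71), Timd4 (log2 −1.96, or −2.69 with the muscle covariate) and Folr2 (log2 −0.54).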
